A study of Bos taurus with 30 samples.

Results

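bta-miR-101 (miR-101) is a conserved microRNA (miRNA), described here in anterior pituitary tissue from 30 bull calves of the Holstein-Friesian breed. It was 1 of 1030 mature miRNA names in the deposited table and 1 of the 419 that passed a filter on low counts. It was chosen as an abundant miRNA for which no calf on the High plane of nutrition (HI) lay above the median of calves on the Moderate plane (MOD), so its difference between the diets is a description, without a test. There was 1 small RNA library per calf, from 15 HI and 15 MOD calves. The HI diet was 1.5 kg of milk replacer in 10 litres each day with unrestricted concentrate, and the MOD diet was 0.5 kg in 4 litres with 0.5 kg of concentrate. The diets began at 2 weeks of age and the glands were collected at 12 weeks. Calves came from several farms and sires, for which the diets were balanced.

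A mature miRNA is a short RNA that is cut from a hairpin precursor and loaded into an Argonaute protein. Its seed, the bases near its 5′ end, pairs with sites in messenger RNAs and lowers their stability and translation. miR-101 is known for repressing EZH2, the histone methyltransferase of the Polycomb complex that silences developmental genes, and PTGS2 (COX-2), the enzyme that starts prostaglandin synthesis. The anterior pituitary is the hormone-secreting lobe of the gland and holds several endocrine cell types beside supporting, vascular and blood cells.

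In RefSeq's gene models for ARS-UCD2.0, another build than the ARS-UCD1.2 used for the reads, 2 hairpin genes carry the miR-101 name. MIR101-2 lies inside RCL1, a protein-coding gene whose product acts in ribosomal RNA processing, with AK3 as the nearest protein-coding gene after it. MIR101-1 lies inside the long non-coding RNA LOC132344975, with AK4 as the nearest protein-coding gene before it. AK3 and AK4 both encode mitochondrial adenylate kinases. The deposited table holds 1 row for miR-101, so reads from the 2 hairpins cannot be told apart.

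miR-101 was among the most abundant miRNAs of the gland. Values are CPM, a library's reads scaled to 1000000 reads on miRNAs and divided by its TMM factor, a correction for differences in composition. The mean of miR-101 over the 30 calves was 10965 CPM, rank 23 of the 419 tested miRNAs, and its rank within a library ran from 21 to 26. Between 0.861% and 1.34% of a library's reads on miRNAs were miR-101. These were 70434 to 113285 reads of 6650492 to 11086524, so that counting error alone was at most 0.377% of a value. Calves on the same diet varied far more, with a coefficient of variation of 10.5% in HI and 8.36% in MOD calves. In 11 libraries the recovered count of miR-101 was 0.5 of a read from a whole number.

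The spread of miR-101 between calves was nonetheless small among the miRNAs of this tissue. Its within-diet standard deviation on the log2(CPM + 1) scale was 0.14, against a median of 0.25 over the 419 miRNAs, and 36 miRNAs had a smaller one. Of the 71 miRNAs with a mean above 1000 CPM, 22 varied less than miR-101. The rule that chose miR-101 drew on these same values and can favour a small spread, so these ranks are a description.

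Levels of miR-101 were lower in HI calves. In HI calves the lowest value was 7345 CPM, the median 10266 CPM and the highest 11375 CPM. In MOD calves the lowest was 10421 CPM, the median 11466 CPM and the highest 13239 CPM. The ranges overlapped, but 9 of the 15 HI calves lay below the lowest MOD calf. Above the highest HI calf lay 8 of the 15 MOD calves, the least number that the rule allows. No MOD calf lay below the HI median. The HI mean was 10176 ± 1065 CPM and the MOD mean 11755 ± 982 CPM (SD, n = 15 calves per diet), so that the HI mean was 13.4% lower. The log2 difference of HI from MOD was -0.21, against a median of 0.02 over all 419 miRNAs. In a bulk sample, fewer cells of a type and less of a miRNA per cell cannot be told apart.

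**Figure D1:**
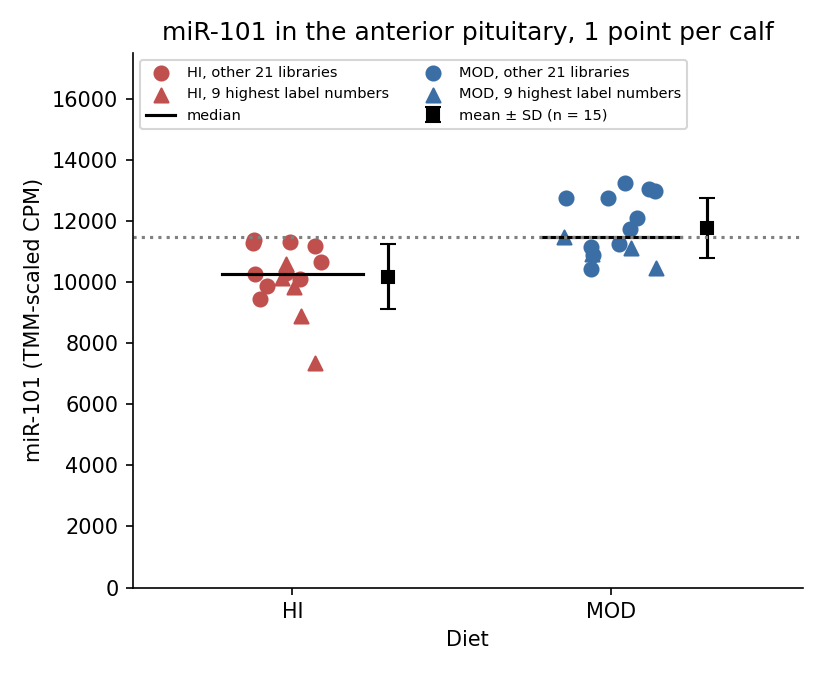
miR-101 in TMM-scaled CPM (vertical axis, from 0) by diet, 1 point per calf; triangles are the 9 libraries with the highest calf label numbers, horizontal bars are medians, squares with whiskers are means ± SD (n = 15), and the dotted line is the MOD median. All HI points lie below the MOD median of 11466 CPM, and HI replicate 15 is lowest at 7345 CPM.

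The margin of the rule was narrow at the top of the HI group. The 4 highest HI calves had 11375, 11328, 11274 and 11197 CPM, and the first of them was 91.0 CPM under the MOD median. At the bottom, HI replicate 15, at 7345 CPM, stood below the next HI calf at 8886 CPM. When any 1 of 7 MOD calves was left out, 1 HI calf lay above the MOD median of the rest, so that miR-101 no longer met the rule. Without HI replicate 15 the log2 difference was -0.18, the end of the range from -0.22 to -0.18 obtained when each calf was left out in turn.

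With the deposited scaling miR-101 was the only tested miRNA without any HI calf above the MOD median (0.239% of 419). Just outside the rule, 6 miRNAs had 1 HI calf above it, namely miR-125a, miR-29a, miR-26b, miR-338, miR-33a and miR-6522. Across all tested miRNAs 3.58% passed a false discovery rate (FDR) under 0.1 between the diets in limma with Benjamini-Hochberg adjustment, a count of 15. That count holds 14 other miRNAs and miR-101, whose own call is no result because the rule used this contrast. Of the 6 miRNAs just outside the rule, 4 were lower in HI calves at FDR < 0.1. They were miR-125a (log2 difference -0.20, FDR = 0.0468), miR-29a (-0.14, FDR = 0.0365), miR-26b (-0.13, FDR = 0.0396) and miR-33a (-0.23, FDR = 0.0396). On total reads none of these 4 passed (FDR = 0.220, 0.411, 0.428 and 0.182 in the same order). Further from the rule, miR-205 (-0.67, FDR = 0.0424) and miR-26a (-0.29, FDR = 0.0613) were lower too, each with 3 HI calves above the MOD median. Both passed on total reads (FDR = 0.0960 for each). Since the count of calves and the test read the same values, the one is no support for the other. In the opposite direction 2 miRNAs (0.477%) had all 15 HI calves above the MOD median, miR-195 (log2 difference 0.41, FDR = 0.0177) and miR-412 (0.24, FDR = 0.186), where 1.91% of tested miRNAs were higher at FDR < 0.1.

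**Figure D2:**
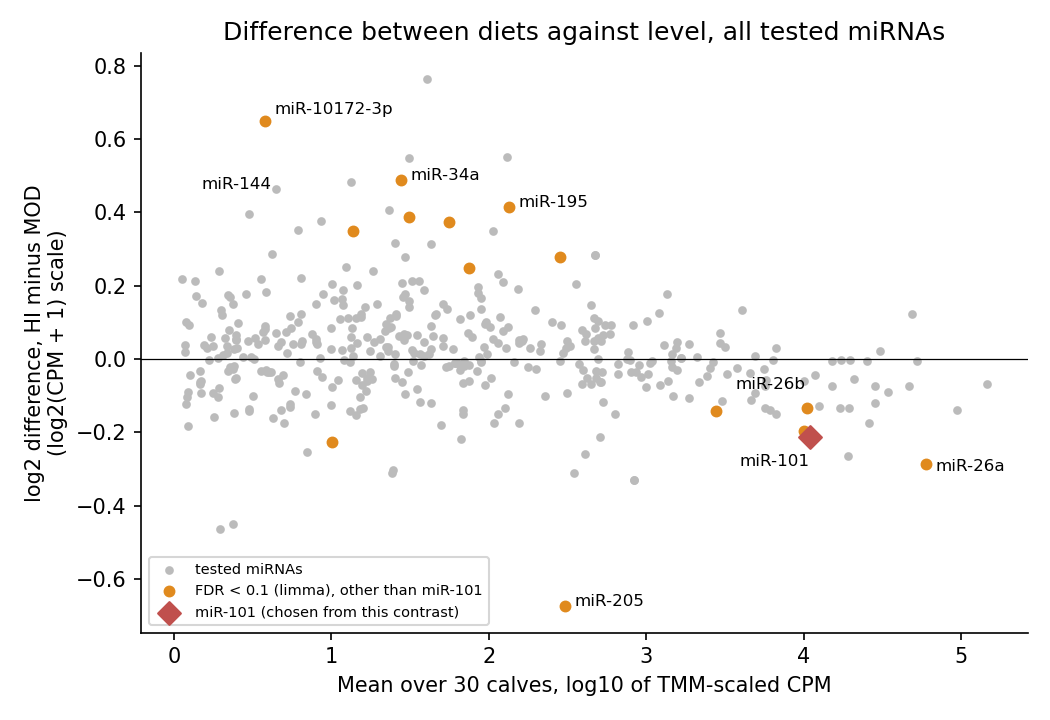
Log2 difference of HI from MOD calves on the log2(CPM + 1) scale (vertical axis) against the log10 of the mean CPM over 30 calves (horizontal axis) for the 419 tested miRNAs; orange points passed FDR < 0.1 in limma, and the diamond is miR-101, which was chosen from this contrast. miR-101 sits at -0.21 among the abundant miRNAs, between miR-26a at -0.29 and miR-26b at -0.13.

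Neighbours in level did not all share this difference. Next above miR-101 in mean CPM were miR-30a-5p, with a log2 difference of -0.13 (standard error 0.06, FDR = 0.329 from limma), and miR-126-5p, an endothelial miRNA, with -0.04 (standard error 0.06, FDR = 0.873). Next below were miR-26b and miR-125a, given above. The mean of miR-101 over all calves differed from those of miR-126-5p and miR-26b by less than its SD within either diet. Of the 71 miRNAs above 1000 CPM, miR-26a and miR-486 had a lower log2 difference than miR-101, and the median of the 71 was -0.04.

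The scaling of the libraries moved both the size of the difference and the separation of the diets. TMM factors were 1.02 ± 0.0724 for HI and 0.979 ± 0.0313 for MOD libraries (SD, n = 15 calves per diet). The highest, 1.21, belonged to HI replicate 15, the calf with the least miR-101 after division by these factors. On total reads, without those factors, the HI mean of miR-101 was 10380 ± 892 CPM and the MOD mean 11508 ± 1067 CPM (SD, n = 15 calves per diet). There HI replicate 14 was lowest, at 8610 CPM, and HI replicate 15 had 8862 CPM. The log2 difference was then -0.15, with a median over all miRNAs of 0.07, and the MOD median was exceeded by 2 HI calves. With upper quartile normalization it was -0.31, with a median of -0.07 over all miRNAs, and no HI calf lay above the MOD median. DESeq2 size factors gave -0.22, and again no HI calf did so. When library size left out the 5 most abundant miRNAs it was -0.15, and the MOD median was exceeded by 4 HI calves. The rule that chose miR-101 therefore held in 3 of these 5 scalings.

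**Figure D3:**
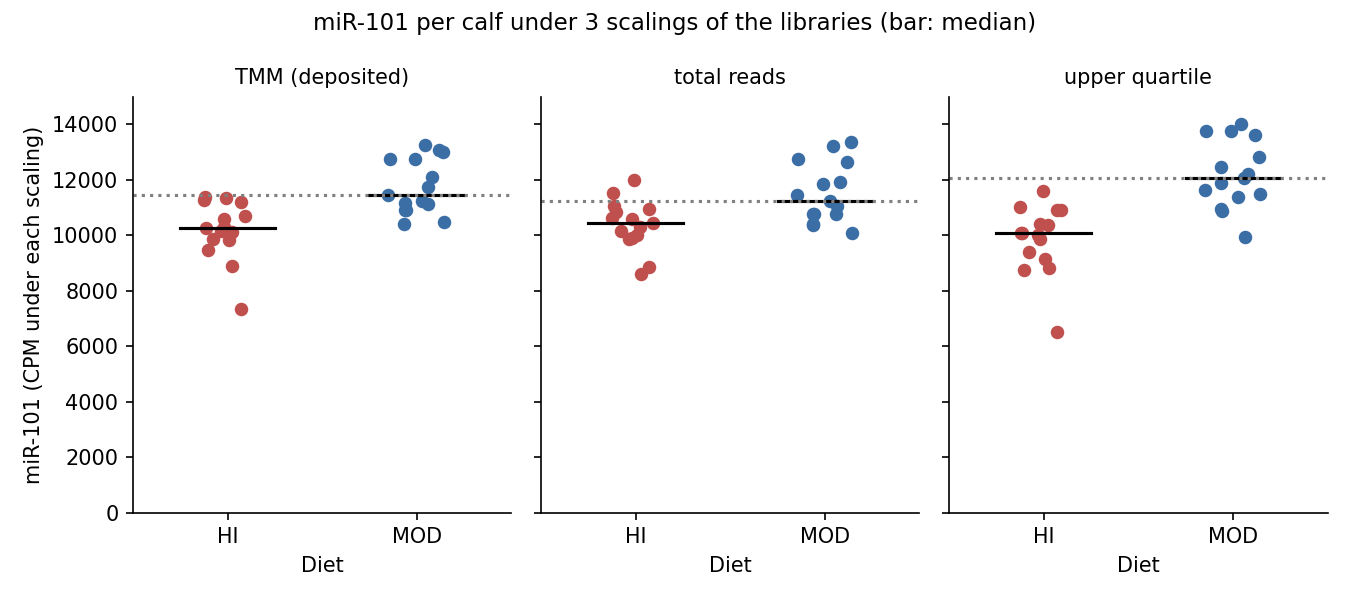
miR-101 in CPM (vertical axis, from 0) by diet under the deposited TMM scaling, total reads and upper quartile normalization, 1 point per calf, with medians as bars and the MOD median as a dotted line. HI calves reach 11375, 11982 and 11592 CPM at most in the 3 panels, and 2 of them pass the MOD median on total reads.

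miR-101 also differed between sets of libraries split by calf label number, which the rule did not use. Earlier work on miR-99b in these same 30 libraries had set apart the 9 whose label numbers are highest (5 HI and 4 MOD). They had 6407 to 9694 CPM of miR-99b, and the other 21 had 4116 to 5185 CPM. The split was thus found from these data. miR-101 was 10086 ± 1280 CPM (SD, n = 9) in those 9 libraries and 11342 ± 1119 CPM (SD, n = 21) in the others. With diet in the model the log2 difference of the 9 from the 21 was -0.16 (standard error 0.05, FDR = 0.0273 from limma), a comparison in which 26.0% of the tested miRNAs passed FDR < 0.1. Without HI replicate 15 it was -0.11, with FDR = 0.0784. The endocrine markers miR-375 (log2 difference 0.37, FDR = 0.000463) and miR-7 (0.25, FDR = 0.0817) were higher in the 9 libraries. Over the 30 calves with diet means removed, Pearson's r with miR-101 was -0.35 for miR-375 and 0.16 for miR-7. Neither passed (adjusted permutation p = 0.205 and 0.683). Whether these 2 miRNAs had a part in the level of miR-101 was not tested. The labels do not say what the order of their numbers stands for.

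Within the sets, the same values were as follows, as a description. In the 21 libraries the 10 HI calves ranged from 9455 to 11375 CPM and the 11 MOD calves from 10421 to 13239 CPM, a log2 difference of -0.18. In the 9 libraries the 5 HI calves ranged from 7345 to 10584 CPM and the 4 MOD calves from 10471 to 11466 CPM, a log2 difference of -0.24. With the set as a block the log2 difference between the diets was -0.20.

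**Figure D4:**
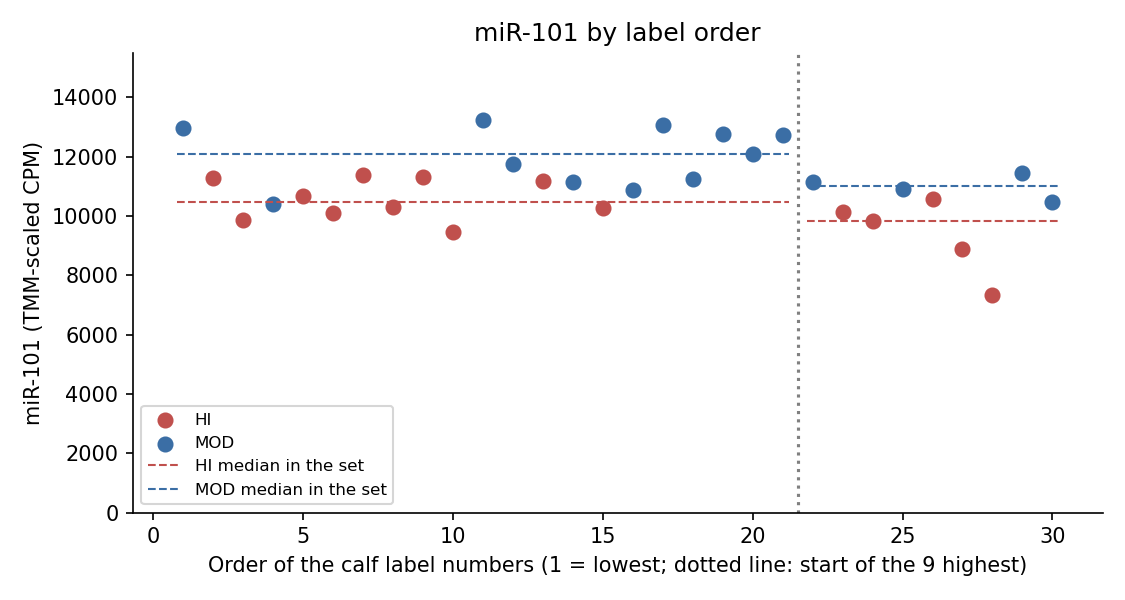
miR-101 in TMM-scaled CPM (vertical axis, from 0) against the order of the calf label numbers (horizontal axis), coloured by diet; the dotted line marks the start of the 9 highest numbers and dashed lines are the medians of each diet in each set. The HI median lies below the MOD median on both sides of the line, a description, since miR-101 was chosen from this contrast. Both medians are lower in the 9 libraries.

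The calves came from 4 farms, and the last 4 digits of their labels fell into 4 ranges, although the labels do not say which farm a calf came from. Mean miR-101 was 11458 ± 1278 CPM (SD, n = 7) in the range that begins with 19 and 11589 ± 1247 CPM (SD, n = 3) in the range that begins with 29. It was 9659 ± 1891 CPM (SD, n = 4) in the range that begins with 37, and 10960 ± 992 CPM (SD, n = 16) in the range that begins with 78. The range that begins with 37 holds HI replicates 1, 14 and 15, at 11274, 8886 and 7345 CPM, and 1 MOD calf. These means pool the diets in unlike shares. HI and MOD calves numbered 2 and 5, 2 and 1, 3 and 1, and 8 and 8 in the same order. With diet in the model the ranges did not pass FDR < 0.1 (limma moderated F test, F = 2.28, FDR = 0.914), where 0.239% of the tested miRNAs passed. As a description, the mean of HI calves was below that of MOD calves in each range. Log2 differences were -0.25, -0.25, -0.30 and -0.15 in the same order, and the ranges 29 and 37 held 1 MOD calf each. These differences split the contrast that chose miR-101, so they are no separate support for it. With the range as a block the log2 difference between the diets was -0.20.

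miRNAs that share reported targets with miR-101 were compared between the diets. All 13 miRNAs listed as repressors of EZH2 were tested, and 2 (15.4%) were lower in HI calves at FDR < 0.1, where 1.67% of all tested miRNAs, miR-101 included, were lower at that threshold. Both are members of the miR-26 family. The HI mean of miR-26a was 54232 ± 11218 CPM and its MOD mean 65414 ± 8569 CPM (SD, n = 15 calves per diet), with a log2 difference of -0.29 (standard error 0.09, FDR = 0.0613 from limma). The HI mean of miR-26b was 9955 ± 635 CPM and its MOD mean 10913 ± 657 CPM (SD, n = 15 calves per diet), with a log2 difference of -0.13 (standard error 0.04). On total reads miR-26b no longer passed (FDR = 0.428), while miR-26a did (FDR = 0.0960). The other 11 were miR-98, miR-138, miR-214 and 8 members of the let-7 family, none of which passed FDR < 0.1 with the deposited scaling. With upper quartile normalization let-7f (FDR = 0.0480) and let-7g (FDR = 0.0246) passed too, so that 4 of the 13 were lower. Under that scaling 26 of all 419 tested miRNAs were lower at FDR < 0.1, and the median log2 difference of the 419 was -0.07. With the deposited scaling the median log2 difference of the 13 was -0.02, against 0.02 for all tested miRNAs.

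Of 6 miRNAs listed as repressors of PTGS2, only miR-26b passed FDR < 0.1, where 3.58% of all tested miRNAs did so, and it lost the call on total reads as given above. The others ran from a log2 difference of -0.10 for miR-16a (FDR = 0.639 from limma) to 0.28 for miR-199a-3p (FDR = 0.314), and the median of the 6 was -0.07.

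miR-144, a miRNA of red blood cells whose seed is known to overlap that of miR-101 in part, was present at far lower levels. It ranged from 2.59 to 12.7 CPM in HI calves, with a median of 4.95 CPM, and from 1.80 to 4.81 CPM in MOD calves, with a median of 3.65 CPM. The log2 difference was 0.46 (standard error 0.15, FDR = 0.115 from limma), opposite in sign to that of miR-101. It passed FDR < 0.1 on total reads (FDR = 0.0960) and in the quasi-likelihood test of edgeR on recovered reads (FDR = 0.0493). With the diet means removed, the Pearson correlation of miR-144 with miR-101 over the 30 calves was r = 0.16 (adjusted permutation p = 0.679).

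Markers of other cells were set beside miR-101. The endocrine miR-375 and miR-7 summed to medians of 151709 CPM for HI and 160277 CPM for MOD calves, and neither passed FDR < 0.1 between the diets. The neural miR-124a and miR-124b were near 0, each with a median of 0.577 CPM for HI and 0.125 CPM for MOD calves. The muscle miRNAs miR-1 and miR-206 had a median of 0 in both diets, and miR-133a did not pass FDR < 0.1. Of the 3 red blood cell miRNAs, miR-144 and miR-451 had a positive and miR-486 a negative log2 difference, and none of the 3 passed in limma with the deposited scaling. Beside miR-144, given above, miR-451 passed in the quasi-likelihood test of edgeR (FDR = 0.0964) and miR-486 in limma with upper quartile normalization (FDR = 0.0888). The HI mean of miR-486 was 17581 ± 4356 CPM and its MOD mean 20807 ± 3718 CPM (SD, n = 15 calves per diet), a log2 difference of -0.27 (standard error 0.11, FDR = 0.274 from limma). With log2 miR-486 as a covariate, the only marker fitted in this way, the log2 difference of miR-101 was -0.15 in place of -0.21. With diet means removed, Pearson's r with miR-101 was 0.50 for miR-486 (adjusted permutation p = 0.0539). For miR-451 it was 0.07 (adjusted permutation p = 0.840), and that of miR-144 is given above. None of the 4 white blood cell, 2 endothelial and 3 tested neural miRNAs passed, with median log2 differences of 0.14, -0.03 and 0.21. Their part in the level of miR-101 was not tested.

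Deviations of miR-101 from its diet mean, which do not use the contrast of the diets, were compared with those of the other 418 tested miRNAs over the 30 calves. In a two-sided permutation test of Pearson's r with 100000 resamples and Benjamini-Hochberg adjustment over the 418, 29 miRNAs (6.94%) had an adjusted p under 0.05, 24 with positive and 5 with negative r. With the means of the 9 and 21 libraries removed as well and deviations permuted within these sets, 3 miRNAs (0.718%) did so, namely miR-23a, miR-6529a and miR-128. Values that follow are with diet means removed, unless stated. The most alike was miR-23a (r = 0.74, Spearman's rho = 0.63, adjusted permutation p = 0.00105 for r and 0.0209 for rho). Next came miR-299, a member of the imprinted miRNA cluster beside DLK1 and MEG3 (r = 0.71, rho = 0.62, adjusted permutation p = 0.00105 and 0.0245). miR-23b-3p, a relative of miR-23a, followed (r = 0.68, rho = 0.66, adjusted permutation p = 0.00139 and 0.0209). miR-10174-3p had the same r, and since its values differed from those of miR-23b-3p by at most 0.484% in any library, the pair is no more than 1 observation. miR-16a came after them (r = 0.63, rho = 0.48, adjusted permutation p = 0.0125 and 0.117).

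At the other end stood miR-128, a miRNA abundant in neurons (r = -0.79, rho = -0.63, adjusted permutation p = 0.00105 and 0.0209). The other tested neural miRNAs did not share this relation. For miR-9-5p r was 0.15 (adjusted permutation p = 0.683) and for miR-137 it was -0.11 (adjusted permutation p = 0.759). miR-6529a had r = -0.74 and rho = -0.74 (adjusted permutation p = 0.00105 and 0.00418), and miR-424-3p r = -0.58 and rho = -0.54 (adjusted permutation p = 0.0179 and 0.0789). The raw p of r was 1e-05 for miR-23a, miR-299, miR-128 and miR-6529a, the smallest that this permutation test can give.

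Most of these relations did not pass once the set of libraries was taken out. With diet and set means removed, r was 0.62 for miR-23a (adjusted permutation p = 0.0334), -0.73 for miR-6529a (adjusted permutation p = 0.00418) and -0.70 for miR-128 (adjusted permutation p = 0.0230). It was 0.57 for miR-299 (adjusted permutation p = 0.0782), 0.52 for miR-23b-3p (0.0941), 0.59 for miR-16a (0.0645), 0.61 for miR-26b (0.0594) and -0.40 for miR-424-3p (0.294). Within the sets, r with miR-23a was 0.52 in the 21 libraries and 0.83 in the 9, and r with miR-128 was -0.50 and -0.91. For miR-6529a it was -0.75 and -0.77. miR-23a (log2 difference -0.33, FDR = 0.000907 from limma) and miR-299 (-0.58, FDR = 3.33e-05) were lower in the 9 libraries, as miR-101 was, and miR-128 was higher (0.38, FDR = 0.00457). Without the 2 calves farthest from the median of miR-101, HI replicate 15 and MOD replicate 3, r was 0.69 for miR-23a, 0.58 for miR-299, -0.65 for miR-128 and -0.71 for miR-6529a. With miR-6529a r was -0.63 on total reads and -0.37 with upper quartile normalization, and with miR-128 it was -0.62 and -0.58. For miR-26b, next below miR-101 in level, r was 0.61 (rho = 0.62, adjusted permutation p = 0.0113 and 0.0245).

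**Figure D5:**
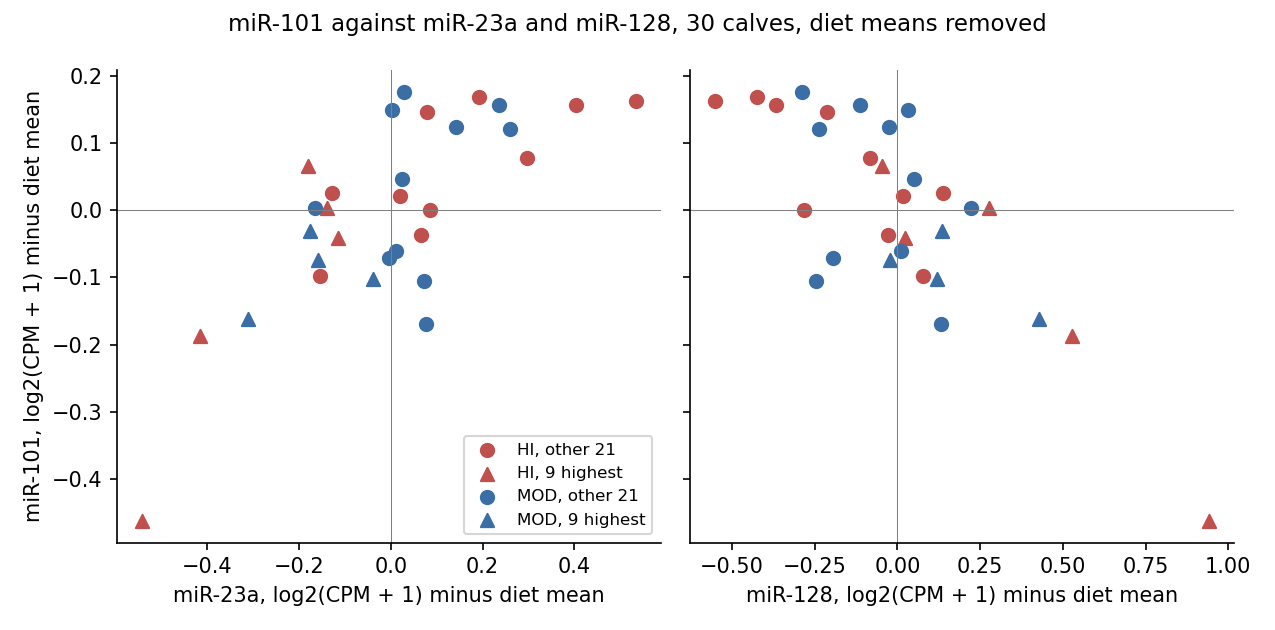
Deviation of miR-101 from its diet mean (vertical axis) against that of miR-23a (left) and miR-128 (right), on the log2(CPM + 1) scale, 1 point per calf, coloured by diet, with triangles for the 9 libraries with the highest label numbers. The points rise with miR-23a (r = 0.74) and fall with miR-128 (r = -0.79), and HI replicate 15 is the lowest point in both panels.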

How the data were processed

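Libraries were grouped by the diet in their labels. Per the study's methods, the authors trimmed adapters (Cutadapt), discarded reads too short or long for a miRNA and reads of other small RNA classes, and assigned the rest to bovine miRNAs with miRDeep2 on ARS-UCD1.2. What was deposited is a signal already normalized, CPM divided by TMM factors. Whole reads were recovered from the smallest step of each library: at least 94.8% of low values were whole within 0.02 reads, and 20 of 20 simulated totals were recovered. Tests between groups used limma 3.58.1 in R 4.3.3 (eBayes with trend) on log2(CPM + 1), for the 419 miRNAs kept by filterByExpr of edgeR 4.0.16, at FDR < 0.1. The fit was tested on simulated data. Alternatives were other scalings, edgeR's quasi-likelihood test and DESeq2 1.42.0 on recovered reads, covariates, a pseudocount of 0.1, no filter, and leaving out each calf. Each calf was taken as a replicate, although some calves shared a sire or farm, which the labels do not give. Replicate numbers follow the order of the deposited samples.

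miR-101, the target lists and the cell markers were chosen with earlier results of these data known. Other miRNAs were named by rule: list members, the 5 highest and 3 lowest by r, the 2 on either side in mean CPM, and any that met the rule of miR-101. miR-29a, miR-33a, miR-205, miR-338, miR-6522, miR-195 and miR-412 were named after their values were seen. Sequences were not used here, so miRNAs sharing a seed with miR-101 were not searched for.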

Additional observations from a re-analysis of the deposited data

How the results depend on the processing

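No paired analysis was possible because no replicate number in the labels links HI to MOD calves. The log2 difference of miR-101 between the diets kept its direction under every scaling, covariate and filter tried. It ran from -0.31 with upper quartile normalization to -0.15 when library size left out the 5 most abundant miRNAs. With 1 calf left out it ran from -0.22 to -0.18. Each move was less than the within-diet SD between calves (0.14), a wider measure than the standard error of the difference (0.05). The number of tested miRNAs with no HI calf above the MOD median was 1. It was 0 on total reads and when library size left out the 5 most abundant miRNAs, 7 with upper quartile normalization, 3 with DESeq2 size factors, and 21 with no filter on low values. Counts at FDR < 0.1 between the diets were made with miR-101 included, although its own call is no result. The number was 15 (8 higher and 7 lower in HI calves). It was 29 (3 higher, 26 lower) with upper quartile normalization, 24 with the Wald test of DESeq2, 18 (16 higher, 2 lower) on total reads, 20 (19 higher, 1 lower) without the 5 most abundant miRNAs, and 14 to 21 with 1 calf left out. The difference of miR-101 between the 9 and 21 libraries kept FDR < 0.1 under every alternative run. With 1 calf left out, an alternative chosen after seeing the data, it ran from -0.18 to -0.11 (limma FDR 0.0145 to 0.0784). The 29 correlations with miR-101 that passed became 3 with set means removed, an alternative whose test was added after seeing the data. The test across label ranges passed under none of its alternatives. The cause was not tested. Depth did not limit miR-101, at 70434 reads or more per library.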
